A study of Mus musculus with 69 samples.

Results

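Cytochrome P450 enzymes were followed as a gene family through RNA-sequencing libraries of mouse kidney. The family was taken as every row of the count table whose symbol is Cyp, a family number, subfamily letters and a gene number, leaving out Cyp27b1, Cyp24a1 and Cyp2r1, which act on vitamin D. This gave 91 of 24411 genes, of which 86 had enough counts to be tested, with at least 2 counts over all libraries, among 21175 genes tested in all. Of the 91, 47 had a mean of at least 10 counts per library and 24 had at most 3 counts in every library. By family number, 58 belong to families CYP1 to CYP3, which act mostly on drugs, foreign compounds and steroids, 17 to family CYP4, which hydroxylates fatty acids and eicosanoids, 6 to steroid hormone synthesis, 6 to cholesterol, oxysterol and bile acid metabolism, 3 to retinoic acid breakdown, and 1, Cyp20a1, has no known substrate.

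The study asked how cells of the collecting duct answer to ischemia and to volume depletion, from RNA made in a short window. All mice carried a UPRTf/+ allele, an enzyme of Toxoplasma gondii behind a stop cassette in the Rosa26 locus, with Hoxb7Cre, which removes the cassette in the collecting duct, or Atp6b1v1Cre (as the labels spell it), which does so in intercalated and related cells. They received 430 mg/kg of 4-thiouracil (4-TU) 4 hours before dissection. RNA that had taken up 4-TU was biotinylated and pulled down, while whole kidney RNA of control mice, taken without the pulldown and labelled Untagged, was sequenced as total RNA. Control mice gave 21 total RNA libraries, 10 Hoxb7 pulldowns and 11 Atp6b1v1 pulldowns. Ischemic injury (iAKI: bilateral renal clamping for 10 minutes, labelled 24 hours later) gave 7 Hoxb7 and 6 Atp6b1v1 pulldowns, and volume depletion (vAKI: 72 hours without water and food) gave 7 and 7. Mice were of both sexes and 5.5 months old, apart from controls of 3 months, which enter only the comparisons among total RNA and the pulldowns of controls and the likeness of genes over total RNA libraries.

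P450 enzymes are heme proteins that insert an oxygen atom into lipids, steroids and foreign compounds, with electrons passed on by P450 reductase and cytochrome b5 in the endoplasmic reticulum or by adrenodoxin in mitochondria. In the kidney they are found above all in the proximal tubule, where CYP4A enzymes hydroxylate fatty acids and arachidonic acid and CYP2J and CYP2C enzymes epoxidize arachidonic acid. Several mouse P450 genes are known to depend on sex hormones or growth hormone, on the aryl hydrocarbon receptor (AHR), or on PPAR-alpha, a receptor activated by fatty acids in fasting.

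Each library held from 12618062 to 30305464 counts. Values are CPM, a library's counts scaled to a common total with TMM factors over the 69 libraries, and "called" means that edgeR's quasi-likelihood test gave an adjusted p below 0.05 with a difference of 1 or more on the log2 scale. SE is the standard error of a log2 difference. The pulldowns were not pure: the summed level of 16 proximal tubule markers was 71099 to 105436 CPM in male total RNA and 7615 to 10039 CPM in male control Hoxb7 pulldowns, so these markers and P450 RNA were present at a lower level rather than absent. Pulldowns from kidneys without Cre were not analysed here, and a low pulldown level cannot be told apart from background binding. Library numbers in the labels fall in 3 runs, called series A, B and C below. All injured Hoxb7 libraries are of series A, while their controls are of series A and B in males and A, B and C in females. In 4 female Hoxb7 vAKI libraries, replicates 1, 2 and 3 stood apart from the male response (Pearson's r of -0.64, 0.32 and -0.46 over 2218 genes, against 0.87 in replicate 5). Whether these replicates differ in treatment is not stated. On the same measure the female Hoxb7 iAKI libraries were at -0.74, -0.79 and -0.79 and the male ones at 0.36 to 0.55, so a negative r was not particular to these vAKI libraries. The 2218 genes were among those called in male Hoxb7 vAKI against control. Male iAKI libraries were set against the same male controls and females against female controls, so r is not on equal terms between the sexes. The injury comparisons are those of males, and the female value is given where its direction differed. The libraries are of whole kidneys, in which fewer cells of a type and less RNA per cell cannot be told apart. P450 genes sit in clusters of near copies: 22 members have under 80% of their 50-base stretches unique in the transcripts of GENCODE M21, among them Cyp4a10 (70.2%), Cyp2a4 (61.2%), Cyp2a5 (63%) and Cyp2d9 (78.2%), so reads may have been lost within these families, while Cyp2j13, Cyp7b1, Cyp2t4 and Cyp27a1 have at least 99.9%.

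P450 genes took a larger share of the counts in male than in female whole kidney, and a small share in all pulldowns. They held 1.13% to 1.26% of counts in 8 male total RNA libraries (median 1.19%) and 0.529% to 0.738% in 8 female ones (median 0.573%), and the groups did not overlap. Medians in the pulldown groups of 5.5 months lay between 0.168% and 0.331%. Per kilobase of exon, the highest median levels in male total RNA were those of Cyp4b1 (2293 CPM per kb), which acts on fatty acids and foreign compounds, Cyp2e1 (1288), the ethanol-oxidizing P450, Cyp2j5 (998), an arachidonic acid epoxygenase, and Cyp2a4 (600.4), a steroid hydroxylase. In female total RNA, the order per kilobase was led by Cyp4a14 (496 CPM per kb), Cyp2j5 (481), Cyp4a10 (365) and Cyp4a31 (273), so that fatty acid hydroxylases of family CYP4A took the place that Cyp4b1 and Cyp2e1 had in males. In females the median levels of Cyp4a14 and Cyp2j5 lay close to each other.

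The sexes differed in whole kidney, by most in Cyp2j13. In control total RNA, 19 of the 86 tested members were called between 8 male and 8 female mice (4.73% of all genes were called, 2.01% higher and 2.72% lower), 10 higher and 9 lower in males. Cyp2j13, a CYP2J epoxygenase gene at chr4:96027534-96077546 (GRCm38, minus strand), stood at 566 to 742 CPM (median 697) in males and 0.525 to 3.55 CPM (median 1.0) in females. On the log2 scale the difference was 9.03 (SE 0.30, adjusted p = 9.32e-22). Cyp7b1, at chr3:18071950-18243338, encodes the oxysterol hydroxylase of the alternative bile acid route. It was at 292 to 405 CPM (median 336) in males and 2.78 to 17.1 CPM (median 6.12) in females, a difference of 5.66 (SE 0.26, adjusted p = 9.64e-18) on the log2 scale. For both genes the lowest male library was far above the highest female one.

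Several other genes of drug and steroid metabolism were higher in males. Cyp2d9, at chr15:82433437-82456845, a testosterone hydroxylase, ranged from 354 to 538 CPM (median 367) in males and from 27 to 39.1 CPM (median 31.7) in females (log2 fold change 3.59, SE 0.21, adjusted p = 3.60e-15). Cyp4b1 was at 4628 to 6136 CPM (median 5172) against 205 to 746 CPM (median 424), a log2 fold change of 3.51 (SE 0.30, adjusted p = 1.10e-10). For Cyp2e1, male libraries lay at 2451 to 3102 CPM (median 2779) and female ones at 232 to 499 CPM (median 384), with a log2 fold change of 2.91 (SE 0.19, adjusted p = 7.15e-14). None of these 3 genes overlapped between the sexes. Cyp2b10, known as a target of the xenobiotic receptor CAR, was low, at 5.29 to 26.3 CPM (median 10.1) in males and 0.0588 to 2.04 CPM (median 1.21) in females (log2 fold change 3.37, SE 0.42, adjusted p = 2.39e-07). Cyp2a4, Cyp4f15 and Cyp2d12 were also called higher in males, at 1.91, 1.33 and 1.20. The last call on this side was the low Cyp2d13, at 4.18, which had at most 10 counts in any library.

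Of the 17 genes of family CYP4, 2 were called higher in males (Cyp4b1 and Cyp4f15) and 3 lower. Cyp4a14, a fatty acid hydroxylase at chr4:115486200-115496142, was at 759 to 2039.7 CPM (median 1289) in females and 6.26 to 164 CPM (median 44.5) in males, -4.16 (SE 0.74, adjusted p = 8.09e-05) on the log2 scale. The male level split by series, with 164, 138, 164 and 62.1 CPM in series A and 6.9, 26.8, 19.9 and 6.26 CPM in series B. Within each series males were below females, with log2 ratios of the means of -3.63 in series A and -6.05 in series B. Cyp4a10, its neighbour in the CYP4A cluster, was lower in males with the smaller log2 value of -1.04 (SE 0.34, adjusted p = 0.0249), with 617 to 1259 CPM (median 769.5) in females and 183 to 608 CPM (median 368) in males. Cyp4f14, which oxidizes leukotriene B4, stood at 7.4 to 12.3 CPM (median 10.1) in females and 2.31 to 5.14 CPM (median 2.78) in males (-1.65, SE 0.22, adjusted p = 8.27e-07). Cyp2c44, an arachidonic acid epoxygenase, was at 69.5 to 130.3 CPM (median 88.7) and 28.3 to 54.2 CPM (median 37.1) (-1.27, SE 0.21, adjusted p = 2.98e-05), again with no overlap. Cyp2d26 was called lower in males as well (-1.28), with the low Cyp2j12 (-1.81) and Cyp2ab1 (-1.74) and the adrenal genes Cyp11b1 and Cyp21a1. The proximal tubule markers also differed: 4 of the 16 were called higher in males and none lower, and their sum ran from 40615 to 49206 CPM in females, below every male library. Their part in the P450 differences was not tested.

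**Figure D1:**
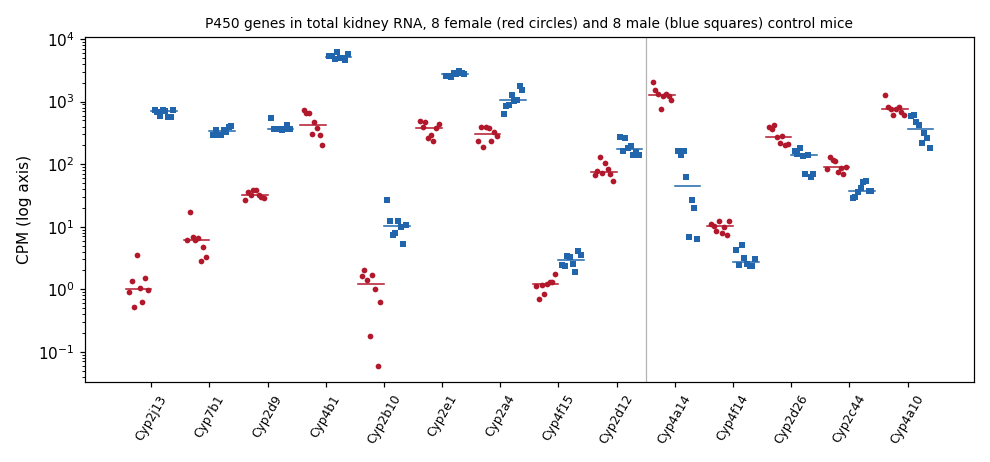
CPM (log axis) of 14 P450 genes in total RNA of control mice of 5.5 months; each point is 1 library, red circles are 8 females, blue squares 8 males, lines are medians and a count of 0 is drawn at 0.03. Cyp2j13 and Cyp7b1 separate the sexes most on the male side of the grey line and Cyp4a14 on the female side, where its male points spread from 6.26 to 164 CPM.

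The promoters of 3 male-high genes are shown, since these genes moved together between the sexes. They are the 250 bases before the RefSeq start of the gene (GRCm38.p6), 5′ to 3′ along the gene, with capitals marking matches on either strand to TTCNNNGAA (a STAT5-type site), TGTTCT (an androgen and glucocorticoid receptor half-site), AGGTCA (a nuclear receptor half-site), GCGTG (the core of the AHR site) or TATAAA (the TATA box).
Cyp2j13, chr4:96077541-96077790, minus strand: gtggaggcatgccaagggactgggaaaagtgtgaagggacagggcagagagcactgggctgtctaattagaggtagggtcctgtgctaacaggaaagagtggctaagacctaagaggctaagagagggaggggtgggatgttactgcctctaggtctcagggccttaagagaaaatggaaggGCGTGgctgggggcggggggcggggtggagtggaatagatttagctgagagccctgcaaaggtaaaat
Cyp2d9, chr15:82452127-82452376, plus strand: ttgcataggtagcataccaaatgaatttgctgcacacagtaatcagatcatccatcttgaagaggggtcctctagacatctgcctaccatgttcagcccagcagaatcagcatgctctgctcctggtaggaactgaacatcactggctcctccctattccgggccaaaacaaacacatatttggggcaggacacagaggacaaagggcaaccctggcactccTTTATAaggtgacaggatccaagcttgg
Cyp2b10, chr7:25897408-25897657, plus strand: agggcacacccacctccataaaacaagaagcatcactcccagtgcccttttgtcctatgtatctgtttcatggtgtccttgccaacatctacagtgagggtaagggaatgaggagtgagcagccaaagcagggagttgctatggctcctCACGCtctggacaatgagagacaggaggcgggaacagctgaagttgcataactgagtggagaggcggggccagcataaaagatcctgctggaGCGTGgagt
No motif was found in all 3. Neither TTCNNNGAA nor TGTTCT matched in any of them, which says only that these letters are not in these windows. The promoter of Cyp4b1, also called higher in males but not shown, held both. Cyp2j13 held GCGTG at -68 and Cyp2b10 held it at -101 and -9, while Cyp2d9 held TATAAA on the reverse strand at -28. The RefSeq start of Cyp2d9 lies well inside the GENCODE gene given above, so its position holds for the RefSeq start only. Over the 71 member promoters of this window, 36.6% held TATAAA, against 12.4% of all 32851 promoters, and 23.9% held AGGTCA, against 14%. GCGTG was in 21.1% of member promoters and 28.2% of all, TGTTCT in 21.1% and 16.1%, and TTCNNNGAA in 7.04% and 7.02%.

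Sex differences were also measured in both pulldowns. In Hoxb7 pulldowns of controls, 14 members were called between 4 males and 4 females (3.62% of all genes were called, 1.14% higher and 2.48% lower), 12 higher and 2 lower in males. In Atp6b1v1 pulldowns, 11 members were called between 4 and 4 (1.45% of all genes were called, 0.907% higher and 0.548% lower), 7 higher and 4 lower. Cyp2j13 was at 62, 103.7, 102.6 and 81.5 CPM in male and 0.246, 0.785, 0.395 and 0.54 CPM in female Hoxb7 pulldowns (7.44, SE 0.42, adjusted p = 1.01e-14). In Atp6b1v1 pulldowns it was at 126, 132, 72.3 and 51.4 CPM in males and 0.724, 0.256, 0.453 and 0.527 CPM in females (7.62, SE 0.42, adjusted p = 6.33e-15). The groups were far apart in both. Cyp7b1 differed by 3.40 (SE 0.33, adjusted p = 1.42e-08) in Hoxb7 and by 3.77 (SE 0.34, adjusted p = 2.22e-09) in Atp6b1v1 pulldowns. Cyp2d9 differed by 3.27 (SE 0.29, adjusted p = 1.46e-09) in Hoxb7 and by 3.09 (SE 0.29, adjusted p = 3.62e-09) in Atp6b1v1 pulldowns. Cyp2a4 differed by 2.26 and 3.36. Cyp2b10, with 17.6, 9.98, 8.49 and 8.01 CPM in males and 2.67, 0.224, 0.263 and 1.04 CPM in females, was called in Hoxb7 pulldowns only (3.39, SE 0.59, adjusted p = 3.10e-04), and whether that differs from Atp6b1v1 pulldowns was not tested.

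On the female side of the pulldowns, Cyp4a14 was at 932, 666, 577 and 395 CPM in female and 51.5, 33.6, 3.65 and 1.54 CPM in male Atp6b1v1 pulldowns (-4.82, SE 1.09, adjusted p = 0.00745). In Hoxb7 pulldowns it was at 1188, 89, 317 and 429.7 CPM in females and 95.1, 67.3, 1.19 and 10.3 CPM in males (-3.54, SE 1.02, adjusted p = 0.0235). There the lowest female library lay below the highest male one, and the call was lost without control Hoxb7 replicate 3 or 5. Cyp4a31 was lower in males in both, at -1.23 and -1.29, and lost its call without any of 2 Hoxb7 or any of 5 Atp6b1v1 libraries. Cyp4a10 was called in Atp6b1v1 pulldowns (-2.02, SE 0.50, adjusted p = 0.0162), but not without replicate 10 or 11. There the low Cyp2j12 was also called lower in males (-2.84, SE 0.63, adjusted p = 0.00553), a call that held without each of the 8 libraries. Cyp4b1 (1.68) and Cyp2d12 (1.92), called higher in male Hoxb7 pulldowns, differed less within series A, by log2 ratios of 0.37 and 0.86 with a single female library. Of the proximal tubule markers, 5 of 16 were called higher in male Hoxb7 pulldowns and 6 of 16 in male Atp6b1v1 pulldowns. In Hoxb7 pulldowns 3 of 8 principal cell markers were called higher in males too (median 0.92), and the part of these markers was not tested.

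Most P450 genes that changed between total RNA and pulldown were lower in the pulldown. Of 86 members, 34 were called in the Hoxb7 pulldown, 8 higher and 26 lower, where 32.5% of all genes were called, 14.6% higher and 17.9% lower. In the Atp6b1v1 pulldown 31 were called, 7 higher and 24 lower, where 27.7% of all genes were called, 11.3% higher and 16.4% lower. The median log2 fold change was -0.29 and -0.23 over the members and 0.11 in both over all genes tested. Among members with at least 10 counts, Cyp2c44, an arachidonic acid epoxygenase, had the lowest value in both pulldowns. It went from 21 to 130.3 CPM (median 54.2) in 21 total RNA libraries to 0.843 to 6.39 CPM (median 2.74) in 10 Hoxb7 and 1.37 to 5.48 CPM (median 2.08) in 11 Atp6b1v1 pulldowns. Its log2 value was -4.55 (SE 0.22, adjusted p = 2.47e-23) in the Hoxb7 pulldown and -4.31 (SE 0.21, adjusted p = 2.72e-23) in the Atp6b1v1 pulldown. Cyp2j5 stood at 1029 to 2589 CPM (median 1930.0) in total RNA, 31.7 to 178 CPM (median 67.6) in the Hoxb7 and 36.1 to 188 CPM (median 106.2) in the Atp6b1v1 pulldown, with log2 values of -4.17 (SE 0.16, adjusted p = 3.83e-27) in the Hoxb7 and -4.02 (SE 0.15, adjusted p = 2.25e-27) in the Atp6b1v1 pulldown. Neither gene overlapped between total RNA and pulldowns. Cyp2d26 (-3.51 and -3.60), Cyp2j11 (-3.31 and -2.88) and Cyp2c69 (-3.13 and -2.78) were among the lowest too. Not all CYP2J genes were low, with Cyp2j6 at -0.69 and Cyp2j9 at -0.15 in the Hoxb7 pulldown, neither called. Cyp4f14 was at -3.24 in Hoxb7 and Cyp2d12 at -3.04 in Atp6b1v1. Of the 16 proximal tubule markers, 15 were called lower in each pulldown, with medians of -3.01 and -2.97. In the Hoxb7 pulldown 7 of 8 hepatocyte, 5 of 8 macrophage, 4 of 7 endothelium and 3 of 4 thick ascending limb markers were called lower too. All 5 adrenal medulla markers and 2 of 6 adipocyte markers were called lower as well, with 1 adipocyte marker higher. Of 8 principal cell markers 5 were called higher and 1 lower, and of 7 intercalated cell markers 3 higher and 1 lower. In the Atp6b1v1 pulldown 4 of 8 hepatocyte, 4 of 7 endothelium, 3 of 4 thick ascending limb, 3 of 6 adipocyte and 1 of 5 adrenal medulla markers were called lower. Of 7 intercalated cell markers 4 were called higher, and of 8 principal cell markers 1 higher and 3 lower. The part of these markers in the P450 differences was not tested.

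A small set was higher in the pulldowns. Cyp1a1, the classic AHR target, was at 0.294 to 1.62 CPM (median 0.688) in total RNA, 0.219 to 4.65 CPM (median 1.16) in Hoxb7 and 0.771 to 5.19 CPM (median 2.03) in Atp6b1v1 pulldowns, so the ranges overlapped. In the Hoxb7 pulldown, the log2 ratio of means of Cyp1a1 was 2.17 in series A, 0.50 in series B and 0.25 in series C. Over all libraries it was called in both pulldowns (Hoxb7 1.35, SE 0.33, adjusted p = 3.07e-04, Atp6b1v1 1.56, SE 0.32, adjusted p = 2.98e-05). Cyp2u1, which hydroxylates long-chain fatty acids, was at 2.63 to 5.33 CPM (median 3.58), 5.74 to 9.68 CPM (median 7.99) and 5.23 to 8.5 CPM (median 7.57) in the same order (Hoxb7 1.09, SE 0.11, adjusted p = 8.87e-13, Atp6b1v1 1.01, SE 0.10, adjusted p = 6.00e-12). Cyp4f39, of a subfamily that acts on very long fatty acids in skin, rose in the Hoxb7 pulldown by 1.97 (SE 0.29, adjusted p = 5.98e-08), and Cyp17a1, of steroid synthesis, by 1.03 (SE 0.18, adjusted p = 2.36e-06). Total RNA is a steady-state pool and the pulldown a pool of a few hours, so cell type and RNA lifetime cannot be told apart in this comparison.

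**Figure D2:**
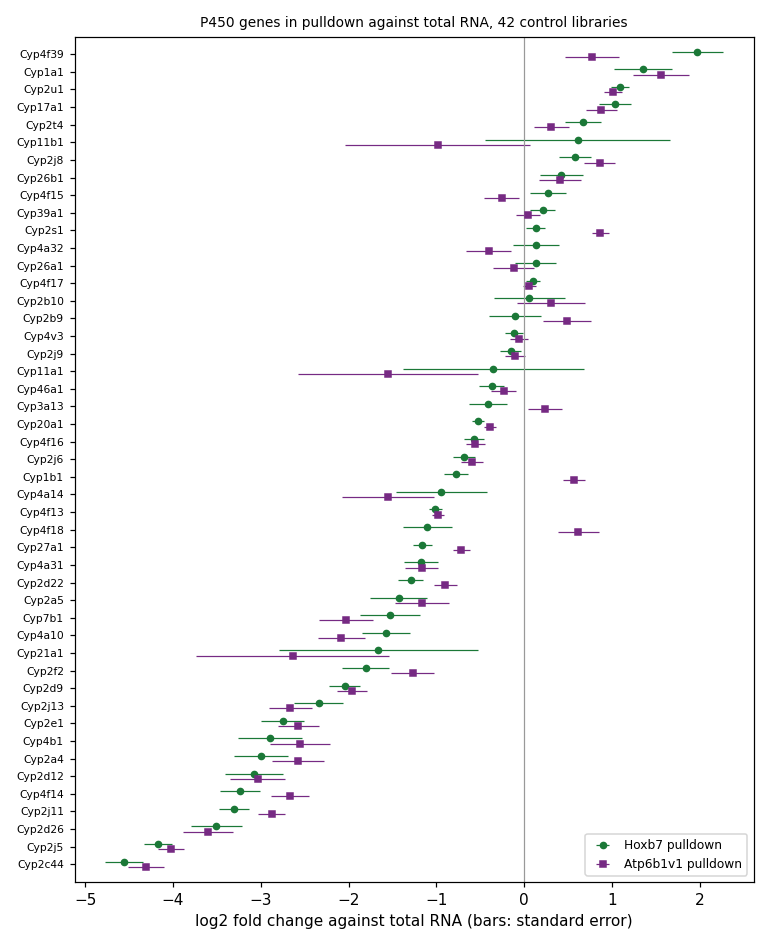
Log2 fold change of control pulldown against total RNA for the P450 genes with a mean of at least 10 counts; green circles are Hoxb7 and purple squares Atp6b1v1 pulldowns, bars are standard errors. Cyp2c44, Cyp2j5 and Cyp2d26 lie lowest in both, and Cyp1a1 and Cyp2u1 are high in both. Cyp4f39 is high in the Hoxb7 pulldown and lower in the Atp6b1v1 pulldown, and Cyp11a1, Cyp11b1 and Cyp21a1 have the widest bars.

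Between the pulldowns themselves, 3 members were called, 2 higher and 1 lower in Atp6b1v1 (4.11% of all genes were called, 2.58% higher and 1.53% lower). Cyp1b1, an AHR target of vessels and stroma, was at 52.2 to 109.4 CPM (median 81) in Atp6b1v1 and 13.1 to 39.5 CPM (median 34.3) in Hoxb7 pulldowns (1.35, SE 0.16, adjusted p = 9.70e-09), with no overlap. Cyp4f18, a leukotriene hydroxylase of white blood cells, was at 0.556 to 1.5 CPM (median 1.02) and 0.0469 to 0.561 CPM (median 0.312) (1.72, SE 0.30, adjusted p = 3.88e-05). Of 8 macrophage markers, 4 were also called higher in the Atp6b1v1 pulldown, with a summed level of 124 to 168 CPM in males against 51.8 to 69.6 CPM in the Hoxb7 pulldown, and their part in the Cyp4f18 difference was not tested. Cyp4f39 was lower in Atp6b1v1 pulldowns (-1.20, SE 0.33, adjusted p = 0.00966), as were 5 of 8 principal cell markers (median -1.23), whose part was not tested.

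In male Hoxb7 pulldowns, Cyp2t4, Cyp27a1, Cyp2d22 and Cyp26a1 rose with volume depletion and Cyp2j8 and Cyp1a1 fell. Of the 86, 19 were called in male vAKI against control Hoxb7 pulldowns (3 against 4 libraries), 7 higher and 12 lower, where 16.4% of all genes were called, 9.61% higher and 6.81% lower. The count of members was lower with both sexes or with a replicate block, and no member was called in females alone. Cyp2t4, a gene of family CYP2 at chr7:27153714-27158668 whose substrate is not well known, was at 26.5, 20.4 and 37 CPM in vAKI and 0.59, 1.65, 1.48 and 1.83 CPM in controls, a log2 fold change of 4.34 (SE 0.56, adjusted p = 4.25e-06). Every vAKI library was more than 10 times the highest control. Cyp27a1, the mitochondrial sterol hydroxylase of bile acid and oxysterol synthesis, rose from 38.5, 33.6, 48.3 and 49 CPM to 120.5, 169 and 144 CPM (1.77, SE 0.21, adjusted p = 1.61e-06). Cyp2d22 rose from 23.2, 19.9, 18.5 and 17.5 CPM to 56.3, 66.6 and 67.5 CPM (1.69, SE 0.18, adjusted p = 5.54e-07). Cyp26a1, which breaks down retinoic acid, rose from 0.801, 0.727, 0.84 and 0.89 CPM to 2.16, 2.21 and 3.7 CPM (1.72, SE 0.37, adjusted p = 8.79e-04). None of these 4 genes overlapped between the groups. Cyp17a1 (1.24), Cyp1b1 (1.10) and the low Cyp26c1 (1.45) were the other members called higher. The call of Cyp17a1 was lost without control replicate 3 or vAKI replicate 7, and that of Cyp1b1 without control replicate 5. In females, Cyp2t4, Cyp27a1, Cyp2d22 and Cyp26a1 were not called, and the log2 value of Cyp27a1 was -0.38.

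Among the genes lower in volume depletion, Cyp2j8, of the epoxygenase family, went from 5.31, 5.47, 4.79 and 4.64 CPM in controls to 1.06, 0.724 and 0.946 CPM (-2.47, SE 0.48, adjusted p = 3.58e-04). Cyp1a1 went from 3.5, 4.65, 0.79 and 1.17 CPM to 0.403, 0.579 and 0.411 CPM (-2.41, SE 0.59, adjusted p = 0.00276). The control libraries of Cyp1a1 split by series, the 2 of series A being higher than the 2 of series B, and all vAKI libraries lay below both. Cyp2b9 was low throughout, at 0.337, 0.339, 1.09 and 2.16 CPM in controls and 0.352, 0.0724 and 0.247 CPM in vAKI (-2.16, SE 0.77, adjusted p = 0.0316), and lost its call without any of 4 libraries (control replicate 4 or 5, vAKI replicate 6 or 7). Its controls split by series too, and the 2 of series A lay within the range of the vAKI libraries, all of series A. Cyp39a1, an oxysterol hydroxylase, fell by 1.37, Cyp2j11 by 1.29, Cyp2j6 by 1.27 and Cyp2s1, an epithelial P450, by 1.02 on the log2 scale. The call of Cyp2s1 was lost without control replicate 4 or 5 or vAKI replicate 4. In females, Cyp1a1 was at 0.31, Cyp2j6 at 0.13, Cyp2j11 at 0.068 and Cyp39a1 at 0.058 on the log2 scale against controls, none of them called. The remaining calls on the lower side were Cyp3a57 and 4 genes of adrenal steroid synthesis, Cyp11a1, Cyp11b1, Cyp11b2 and Cyp21a1. Of 8 principal cell markers, 6 were called lower in the same comparison and none higher (summed level 1174 to 1261 against 2802 to 3646 CPM), and 4 of 7 intercalated cell, 4 of 6 adipocyte and 2 of 4 thick ascending limb markers were called lower. Of 7 endothelium markers, 3 were called higher. The part of these markers in the P450 changes was not tested.

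The promoters of Cyp2t4, the largest rise, and of Cyp1a1 are shown with the same window and motifs.
Cyp2t4, chr7:27153464-27153713, plus strand: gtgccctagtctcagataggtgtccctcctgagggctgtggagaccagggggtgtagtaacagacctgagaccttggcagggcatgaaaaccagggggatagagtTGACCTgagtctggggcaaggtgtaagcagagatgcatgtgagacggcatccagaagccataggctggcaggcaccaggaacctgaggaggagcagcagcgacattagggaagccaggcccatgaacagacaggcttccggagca
Cyp1a1, chr9:57697363-57697612, plus strand: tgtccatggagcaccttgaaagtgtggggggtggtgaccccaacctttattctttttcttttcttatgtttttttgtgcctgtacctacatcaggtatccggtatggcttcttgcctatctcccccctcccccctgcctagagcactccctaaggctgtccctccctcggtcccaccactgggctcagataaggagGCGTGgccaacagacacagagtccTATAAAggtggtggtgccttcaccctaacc
Cyp2t4 held AGGTCA at -145 and Cyp1a1 held GCGTG at -54 and TATAAA at -30. The RefSeq start of Cyp1a1 lies well inside its GENCODE gene, so its positions hold for the RefSeq start only. Among the other AHR targets listed, Tiparp, a feedback inhibitor of the receptor, was called higher (3.46, SE 0.32, adjusted p = 1.07e-07), while Cyp1a1 was called lower and Cyp1b1 higher. Of the 5 in that list, 1 was called higher and none lower.

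In Atp6b1v1 pulldowns of males, volume depletion gave 11 member calls from 4 against 4 libraries, 4 higher and 7 lower (5.15% of all genes were called, 3.45% higher and 1.7% lower). Cyp4a14, the fatty acid hydroxylase that was low in males, was at 623 and 466 CPM in series A and 23 and 35.8 CPM in series B after vAKI. The matching controls were at 51.5 and 33.6 CPM and 3.65 and 1.54 CPM. The log2 fold change was 3.70 (SE 1.07, adjusted p = 0.0232), and within series the ratio of means was 12.8 in A and 11.3 in B. Cyp4a10 was at 402 and 410.3 CPM in series A and 55.9 and 70.5 CPM in series B, against 93.2 and 123 CPM and 36.8 and 28.1 CPM in controls (1.77, SE 0.58, adjusted p = 0.0423), with ratios of 3.76 and 1.95. Both genes were higher than their controls in each series, although the series A controls of both genes reached or passed the series B vAKI libraries. With a replicate block the log2 values turned to -0.31 for Cyp4a14 and -0.25 for Cyp4a10, though the labels do not tie replicate numbers to mice. Treated and control libraries are of different mice. The only number these male groups share is 6, in series A for the control and series B for vAKI. That block is therefore no test of the rise. The call of Cyp4a14 was lost without control replicate 10, and that of Cyp4a10 without any of 5 of the 8 libraries (control replicates 6, 10 and 11 and vAKI replicates 1 and 2). Of 12 PPAR-alpha targets, 5 were called higher, among them Pdk4, which spares glucose in fasting (2.24). In male Hoxb7 pulldowns 3 of these 12 were called higher with vAKI (9.61% of all genes), while 0 of the 17 CYP4 genes were called. There the median of Cyp4a14 went from 14.9 CPM per kb in controls to 9.24 in vAKI, and that of Cyp4a10 from 54.2 to 42.5. In female Atp6b1v1 pulldowns, Cyp4a14 and Cyp4a10 were at -0.57 and -0.56 in vAKI against controls on the log2 scale and were not called.

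Cyp2t4 was called here as well, at 1.66, 3.84, 15.9 and 18.5 CPM in vAKI and 0.712, 1.26, 1.27 and 2.24 CPM in controls (2.83, SE 0.52, adjusted p = 0.00124). The series A libraries, at 1.66 and 3.84 CPM, were nearer to the controls than those of series B, at 15.9 and 18.5 CPM, and the lowest of them lay within the control range. On the lower side, Cyp2j13 went from 126, 132, 72.3 and 51.4 CPM to 30.9, 32.9, 15.3 and 13.1 CPM (-2.02, SE 0.35, adjusted p = 6.86e-04) with no overlap, and by a ratio of 0.247 in series A and 0.23 in series B. Cyp2s1 went from 26, 21.6, 26.6 and 29.1 CPM to 8.17, 13.1, 12.1 and 9.96 CPM (-1.24, SE 0.16, adjusted p = 5.49e-05). Cyp1a1 fell from 3.43, 2.03, 2.29 and 0.837 CPM to 0.634, 0.596, 0.639 and 0.463 CPM (-1.84, SE 0.53, adjusted p = 0.0216), a call lost without control replicate 6 or vAKI replicate 6 or 7. Cyp2j11 fell by 1.54, Cyp2a4 by 1.59 and Cyp4f15 by 1.06 on the log2 scale. Cyp2a4 and Cyp4f15 each lost the call without any of 5 libraries, and Cyp17a1, called higher (1.02), without any of 6. The low Cyp2a12 was the last call on the lower side. The count fell to 5 without control replicate 10, 6 without vAKI replicate 7 and 7 without control replicate 6 or vAKI replicate 6. In females, Cyp2a4 was at 0.38 on the log2 scale and was not called. Of the 16 proximal tubule markers, 5 were called lower, as were 2 of 7 intercalated cell markers (median -0.94) and 2 of 6 adipocyte markers, and their part in these changes was not tested.

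**Figure D3:**
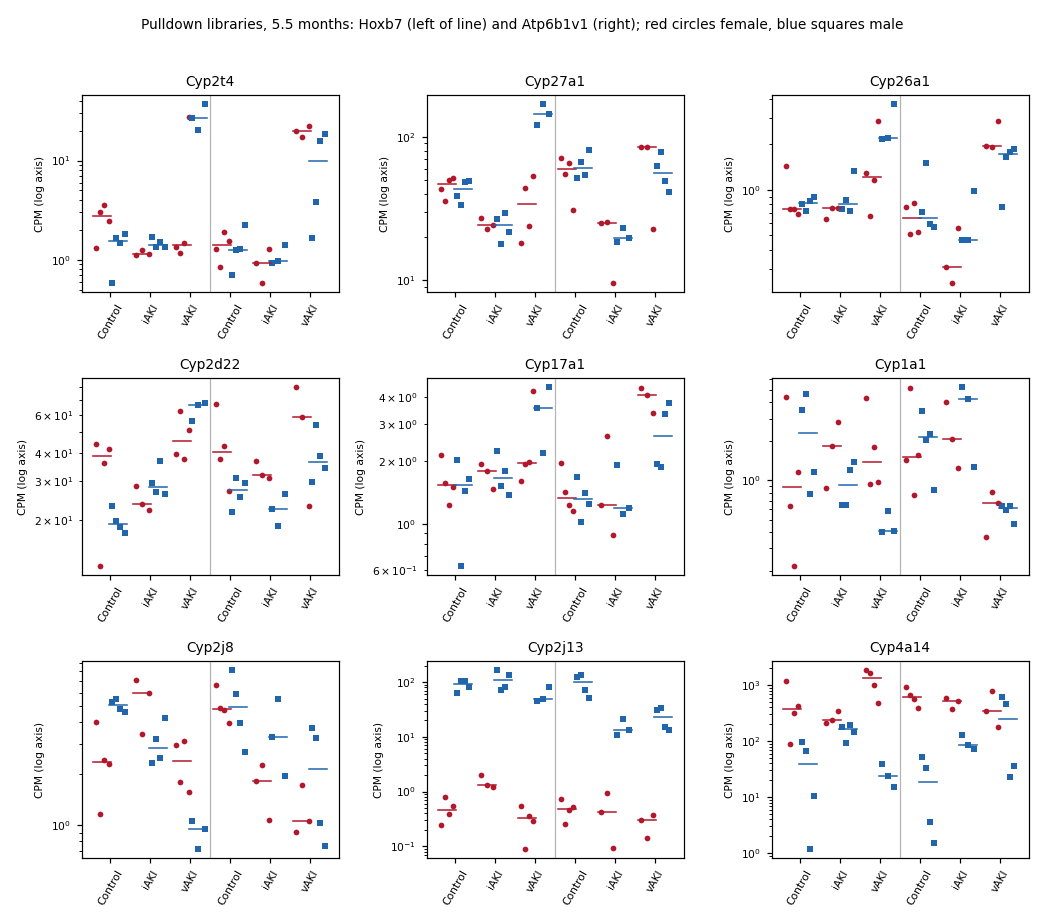
CPM (log axis) of 9 P450 genes in pulldown libraries of 5.5 months; each point is 1 library, red circles are females, blue squares males, lines are medians, with Hoxb7 left and Atp6b1v1 right of the grey line. Male Cyp2t4 is above 20 CPM in every Hoxb7 vAKI library, and 1 of 4 female Hoxb7 vAKI libraries reaches that range.

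**Figure D4:**
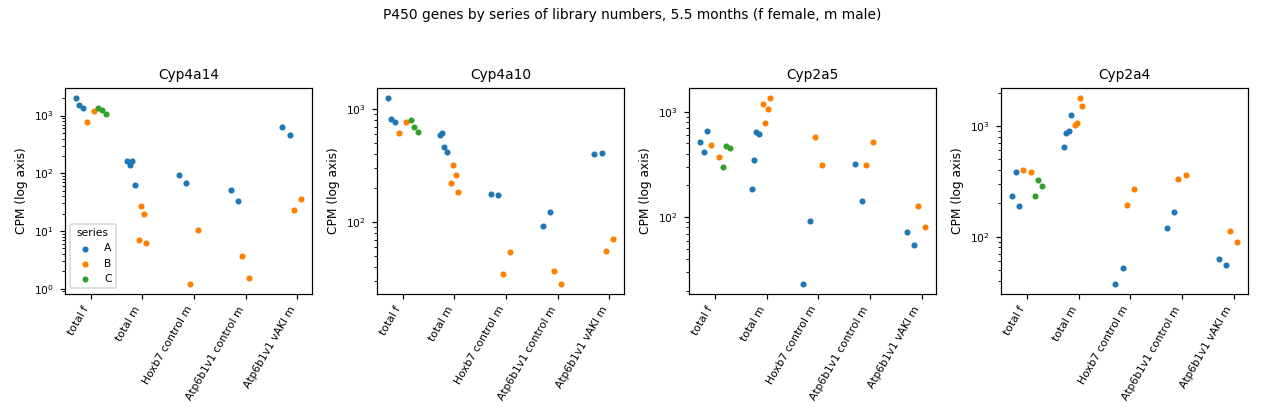
CPM (log axis) of Cyp4a14, Cyp4a10, Cyp2a5 and Cyp2a4 by series of library numbers (colours A, B and C) in total RNA, male control pulldowns and male Atp6b1v1 vAKI pulldowns of 5.5 months; each point is 1 library. Male series A libraries lie above series B for Cyp4a14 and Cyp4a10 in every group drawn, and below series B for Cyp2a4 in the pulldowns.

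Most P450 genes that changed with ischemia in the Atp6b1v1 pulldown were lower, among them the male-high Cyp2j13, Cyp2d12, Cyp2d9 and Cyp2e1. Of the 86, 9 were called from 3 against 4 male libraries, 1 higher and 8 lower (2.82% of all genes were called, 1.14% higher and 1.68% lower). Cyp2d12 went from 28.7, 28.4, 13.9 and 11.4 CPM in controls to 3.26, 2.17 and 3.08 CPM in iAKI (-2.85, SE 0.43, adjusted p = 7.28e-04). Cyp2j13 went from 126, 132, 72.3 and 51.4 CPM to 10.6, 20.8 and 13.2 CPM (-2.70, SE 0.40, adjusted p = 6.78e-04). Cyp27a1 went from 51.9, 67, 54.5 and 81.3 CPM to 18.6, 23.1 and 19.7 CPM (-1.65, SE 0.22, adjusted p = 3.55e-04). All iAKI libraries of the 3 genes lay below all controls, in both series. Cyp4f15 fell by 1.81, Cyp2d26 by 1.61, Cyp4b1 by 1.27, Cyp2d9 by 1.24 and Cyp2e1 by 1.20 on the log2 scale. Cyp2d26 lost its call without any of 5 libraries, Cyp2d9 without any of 3, Cyp4b1 without iAKI replicate 1 and Cyp2e1 without iAKI replicate 5. The count fell to 5 without iAKI replicate 1. Cyp3a13 was called higher (1.39, SE 0.43, adjusted p = 0.0457) at 3.16, 1.3 and 0.821 CPM against 0.419, 0.533, 0.933 and 0.77 CPM, a call lost without any of 5 of the 7 libraries. The single iAKI library of series B lay within the control range of Cyp3a13. In females, 3 members were called in this comparison, and Cyp2j13 was at 0.0048 on the log2 scale. Female control libraries held little Cyp2j13, as given above, so a fall of the male size could hardly be seen there. Of the 16 proximal tubule markers, 8 were called lower (median -1.16, summed level 4061 to 6183 against 8570.1 to 10445 CPM), and Hnf4a, a regulator of proximal tubule genes, was at -1.39 (SE 0.37, adjusted p = 0.0208). The part of these markers in the P450 changes was not tested.

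In the Hoxb7 pulldown, ischemia gave 6 member calls from 4 against 4 males, 1 higher and 5 lower (2.3% of all genes were called, 1.52% higher and 0.784% lower). More members were called with the series as a covariate, where 897 genes were called against 488 without it. Cyp2b10 went from 17.6, 9.98, 8.49 and 8.01 CPM to 0.495, 1.68, 2.47 and 0.459 CPM (-3.11, SE 0.60, adjusted p = 0.00403). Cyp2d9 went from 88.1, 57.4, 67.2 and 76.9 CPM to 38.4, 13.9, 37.7 and 22.7 CPM (-1.35, SE 0.30, adjusted p = 0.0103). Neither gene overlapped between the groups. Cyp1b1 rose from 39, 30.3, 27.6 and 13.1 CPM to 49.8, 113, 44.6 and 52.9 CPM (1.26, SE 0.31, adjusted p = 0.0171), a call lost without control replicate 5 or iAKI replicate 5. Cyp11a1, Cyp11b1 and Cyp21a1 made up the other calls, and each was lost without control Hoxb7 replicate 2, which left a count of 3. In females, 2 members were called, and Cyp2b10 was at 0.38 and Cyp1b1 at -0.27 on the log2 scale, neither called. Female controls held little Cyp2b10, as given above, so a fall of the male size could hardly be seen there. None of the 16 proximal tubule markers was called here, while 4 of 8 principal cell markers and 5 of 6 adipocyte markers (median -1.56) were called lower, and their part was not tested.

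Some of these responses differed between the drivers. The iAKI response of Cyp2j13 was lower in Atp6b1v1 than in Hoxb7 pulldowns, with a log2 difference of -3.08 (SE 0.51, adjusted p = 0.00319), where Hoxb7 libraries stood at 165, 72, 80.6 and 134 CPM after iAKI and 62, 103.7, 102.6 and 81.5 CPM in controls. In all, 5 members were called in this test for iAKI (3.49% of all genes were called, 1.6% higher and 1.88% lower), with Cyp2d12 at -1.75, Cyp1b1 at -1.61, Cyp39a1 at 1.21 and Cyp21a1, an adrenal gene. Apart from Cyp2j13, each of these was lost without any of 5 to 11 of the 15 libraries, and the count ranged from 1, without control replicate 9 or iAKI replicate 1 of Atp6b1v1, to 7. In females alone or with a replicate block, 0 genes were called in this test, so the call of Cyp2j13 was lost there too. The block joins libraries of different mice by number, so its counts are no test of a difference between drivers. For vAKI, 2 members were called (2.93% of all genes were called, 1.34% higher and 1.6% lower): the response was lower in Atp6b1v1 for Cyp27a1, at -1.90 (SE 0.29, adjusted p = 8.46e-04), and for Cyp2d22, at -1.13 (SE 0.25, adjusted p = 0.0104). The count was 4 without control Hoxb7 replicate 4, 12 with the series as a covariate, 5 by DESeq2 or with 25 males, and 0 in females, with both sexes or with a replicate block. Cyp27a1 in Atp6b1v1 pulldowns stood at 62.7, 78, 48.9 and 41.1 CPM after vAKI and 51.9, 67, 54.5 and 81.3 CPM in controls, while it rose in the male Hoxb7 pulldown. In females the log2 difference between drivers was 0.59 for Cyp27a1 in vAKI and -0.025 for Cyp39a1 in iAKI, neither called. For iAKI, the response of 4 of 16 proximal tubule markers was called lower in Atp6b1v1 (median over the list -1.22), and that of 6 of 8 principal cell and 5 of 6 adipocyte markers higher. For vAKI, 3 of 16 proximal tubule markers were called lower and 4 of 8 principal cell markers higher. Their part in the P450 differences was not tested.

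Volume depletion and ischemia were also compared directly in males. In Hoxb7 pulldowns 10 members were called, 6 higher and 4 lower in vAKI (14.7% of all genes were called, 8.15% higher and 6.55% lower), and in Atp6b1v1 pulldowns 16, 8 higher and 8 lower (11.6% of all genes were called, 7.16% higher and 4.39% lower). Cyp27a1 was higher in vAKI in both, by 2.58 (SE 0.21, adjusted p = 3.89e-08) in Hoxb7 and 1.52 (SE 0.22, adjusted p = 3.27e-05) in Atp6b1v1 pulldowns. Its iAKI libraries stood at 26.9, 17.9, 29.4 and 21.6 CPM in Hoxb7 pulldowns. Cyp2t4 differed by 4.25 and 3.18, and Cyp26a1 by 1.53 and 1.25, the last of these being lost without any of 3 libraries. In Hoxb7 pulldowns, Cyp2b10 (3.00), Cyp2d9 (2.04) and Cyp2d22 (1.08) were also higher, and Cyp3a57 (-2.58), Cyp2j8 (-1.77), Cyp4a32 (-1.63) and Cyp2j6 (-1.16) lower. In Atp6b1v1 pulldowns, Cyp2d12 (2.10), Cyp2d26 (2.04) and Cyp2e1 (1.37) were higher, and Cyp2a5 (-2.82), Cyp1a1 (-2.57), Cyp3a13 (-2.23), Cyp2b9 (-2.09), Cyp2s1 (-1.40) and Cyp4f18 (-1.30) lower. Cyp2a5, a coumarin hydroxylase, was at 987, 736 and 84.2 CPM in iAKI and 71.6, 54.7, 127 and 80.4 CPM in vAKI, and lost its call without iAKI replicate 1. The difference was that of the 2 iAKI libraries of series A, since the iAKI library of series B lay within the vAKI range and the ratio of means in that series was 1.23. Cyp4a32, Cyp2b9 and Cyp4f18 lost their calls without any of 2, 2 and 5 libraries. In females, Cyp4a32 was at 0.51 in Hoxb7 and Cyp2b9 at 0.38 and Cyp2a5 at 0.082 in Atp6b1v1 pulldowns on the log2 scale, none of them called. In the Atp6b1v1 comparison, 6 of 16 proximal tubule markers were called higher and 2 lower, and 4 of 7 intercalated cell, 3 of 4 thick ascending limb, 4 of 6 adipocyte and 2 of 8 macrophage markers were called lower. In the Hoxb7 comparison, 3 of 8 hepatocyte and 3 of 8 macrophage markers were called lower, 1 macrophage marker higher, 2 of 7 intercalated cell markers lower, 2 of 8 principal cell markers lower and 1 higher, and 2 of 7 endothelium markers higher. The part of these markers was not tested. Each vAKI and iAKI comparison with controls uses the same control libraries, so they are not independent of each other.

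The response to injury was compared between the sexes, where the share of members called in Hoxb7 pulldowns (9.3% for vAKI and 6.98% for iAKI) was no higher than that of all genes, 10.8% and 6.98%. Cyp2t4 was at 1.34, 1.17, 1.49 and 27.2 CPM in female Hoxb7 vAKI libraries and 1.31, 3.03, 3.6 and 2.47 CPM in controls, so that replicate 5 alone was in the male range. Cyp27a1 was at 18.2, 43.9, 23.7 and 53.4 CPM against 43.1, 35.8, 50.3 and 51.5 CPM. The vAKI response was higher in males than in females for Cyp2t4 by 2.77 (SE 0.95, adjusted p = 0.0418), for Cyp27a1 by 2.16 (SE 0.46, adjusted p = 0.00358) and for Cyp2d22 by 1.19 (SE 0.42, adjusted p = 0.0461). It was lower in males for Cyp2j8 (-2.40), Cyp39a1 (-1.42), Cyp2j6 (-1.40) and Cyp4f16 (-1.13). With Cyp2c69 these were 8 members (10.8% of all genes were called, 5.48% higher and 5.35% lower), and 0 were called without female Hoxb7 vAKI replicates 1, 2 and 3, which leaves 1 female vAKI library, assumed to vary like the other groups. The values of the 7 named members kept their sign there, with Cyp27a1 at 1.53 and Cyp2t4 at 0.95. Without female vAKI replicate 5 alone, Cyp2t4 was at 5.31. Leaving out any 1 of the 15 libraries gave 3 to 13, with 3 without control replicate 3 or 9 or vAKI replicate 3 or 7, and 13 without control replicate 1. The calls of Cyp27a1, Cyp2j8 and Cyp2j6 held without each of the 15, while those of Cyp2t4 and Cyp2d22 were each lost without any of 12, of Cyp4f16 without any of 8 and of Cyp39a1 without any of 6. For iAKI in Hoxb7 pulldowns 6 members were called, all with a lower response in males (6.98% of all genes were called, 4.77% higher and 2.22% lower): Cyp2b10 (-3.47), Cyp2d12 (-2.19), Cyp2j11 (-2.12), Cyp7b1 (-1.91), Cyp2j8 (-1.87) and Cyp2j5 (-1.80). The count was 0 without female iAKI replicate 3 and 12 without female control replicate 1. Apart from iAKI replicate 3, Cyp2j11 and Cyp2j5 kept their calls without any 1 library, while the other 4 were lost without any of 6 to 9 of the 15. In the same responses 7 of 8 principal cell markers were called lower in males for vAKI and 6 of 8 for iAKI, with 2 of 4 thick ascending limb markers in each and, for iAKI, 2 of 16 proximal tubule and 1 of 6 adipocyte markers. For vAKI 2 of 7 intercalated cell markers were called lower and 2 of 7 endothelium markers higher. The part of these markers was not tested.

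In Atp6b1v1 pulldowns, female Cyp2t4 was at 19.7, 17.3 and 22.4 CPM in vAKI and 1.28, 0.84, 1.9 and 1.53 CPM in controls, so all 3 vAKI libraries were above all controls, as most male ones were. No member and no gene was called for a sex difference in the response in Atp6b1v1 pulldowns by edgeR, for either injury. At an unadjusted p under 0.05 there were 8 members and 1756 genes for vAKI and 4 members and 676 genes for iAKI, and DESeq2 called 0 members and 32 and 1 genes.

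Of the steroid synthesis P450 genes, Cyp11b1 and Cyp21a1 were high in libraries that were high in adrenal markers. Cyp11b1, which makes corticosterone, was at 50, 4.08, 195, 58.4, 26, 0, 0 and 0 CPM in female total RNA and 18, 0.516, 0.0439, 0.112, 0.0611, 0, 0.0601 and 0.0712 CPM in male total RNA. In female Atp6b1v1 iAKI pulldowns it was at 169, 314 and 0 CPM. Hsd3b1, an adrenal cortex marker, was at 59.7, 7.21, 285, 85.5, 37.9, 4.2, 3.29 and 4.27 CPM in the same female total RNA libraries, in the same order of high and low for those above 20 CPM. Cyp21a1, a steroid hydroxylase of the adrenal cortex, was at 56.3, 6.13, 271, 79, 22.9, 0.0568, 0 and 0.0576 CPM there, and its nearest genes over the 21 total RNA libraries were Cyp11b1 (Pearson's r of log2 CPM 0.99), Cyp11a1 (0.982), Akr1cl, Akr1b7 and Star, among 14703 genes searched. Whether adrenal tissue was taken with some of the kidneys is not stated in the sources used here, and the values are a description. Cyp11b1 and Cyp21a1 were called lower in males in total RNA (-4.10 and -4.87), where 5 of 7 adrenal cortex and 3 of 5 adrenal medulla markers were called lower too. The cortex markers summed to 22.7 to 1033 CPM in females and 14.8 to 134 CPM in males, and their part in these calls was not tested.

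Cyp17a1 did not share this pattern, at 0.284 to 1.29 CPM (median 0.933) in female and 0.375 to 0.899 CPM (median 0.561) in male total RNA, and mouse adrenal cortex is known to make little of it. In the injury comparisons, Cyp11a1 was at 10.1, 0.727, 0 and 0 CPM in male Hoxb7 controls and 0, 0.0362 and 0.0822 CPM in vAKI, so its call and those of Cyp11b1 and Cyp21a1 rested on control replicate 2, which also held 28.4 CPM of Hsd3b1. Cyp11b2, the aldosterone synthase, had 17 counts in control replicate 2, 2 in replicate 3 and 0 in replicates 4 and 5 and in the 3 vAKI libraries.

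**Figure D5:**
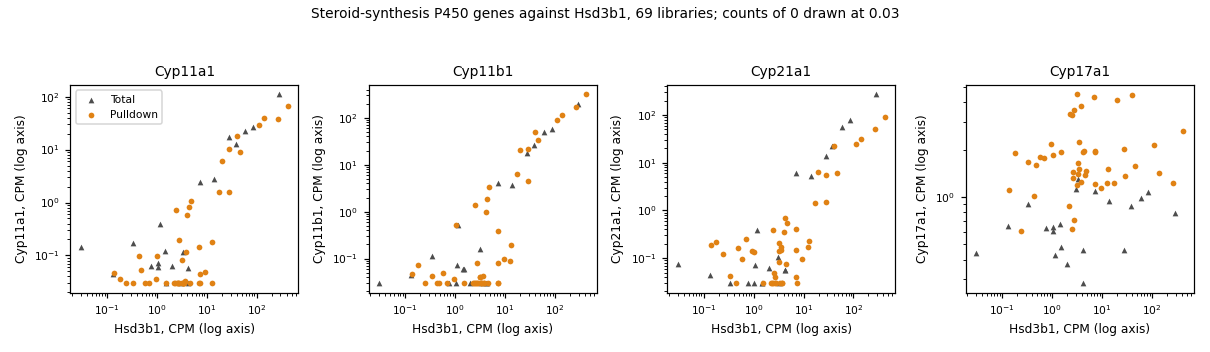
CPM (log axes) of 4 steroid synthesis P450 genes against Hsd3b1, 1 point per library, grey triangles for total RNA and orange circles for pulldowns; a count of 0 is drawn at 0.03. Cyp11a1, Cyp11b1 and Cyp21a1 rise with Hsd3b1 in its upper range, and Cyp17a1 stays between 0.284 and 4.48 CPM.

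Among the remaining genes of cholesterol and retinoic acid metabolism, Cyp39a1 was lower after volume depletion. It was at 19.3, 29.9, 14.3 and 12.4 CPM in male Hoxb7 controls and 7.3, 7.92 and 6.7 CPM after vAKI. Cyp46a1, the cholesterol hydroxylase known from brain, stood at 1.13 to 2.7 CPM (median 1.83) in male total RNA and at 2.37, 2.21 and 2.14 CPM in male Hoxb7 vAKI pulldowns and was called in no comparison. Cyp26b1, which breaks down retinoic acid, was at 15.1, 8.82, 7.56 and 8.25 CPM in male Hoxb7 controls and 9.97, 13.3 and 22 CPM after vAKI, with overlapping ranges and no call, unlike Cyp26a1. Cyp20a1 was at 18.4 to 25.5 CPM (median 20.7) in total RNA and was called in no comparison.

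Some genes that serve P450 enzymes were called lower in the pulldowns too. Of 10 electron donors and partners, 5 were called lower in the Hoxb7 and 6 in the Atp6b1v1 pulldown against total RNA, and none higher. Of all genes, 17.9% and 16.4% were called lower. Cyb5a, cytochrome b5, was at -2.82 and -2.56, and Por, the reductase that serves all microsomal P450 enzymes, at -1.09 in Hoxb7. In vAKI against control Hoxb7 males, Por was called higher (1.21, SE 0.12, adjusted p = 3.81e-07), and 2 of 10 were called higher and none lower. Of all genes, 9.61% were called higher and 6.81% lower there. Of 19 nuclear receptors and other regulators, 3 were called lower in iAKI Atp6b1v1 males (1.68% of all genes) and none higher. None was called in the injury comparisons of Hoxb7 males with controls.

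Over the 18 comparisons, Cyp2j13, Cyp2d9 and Cyp2d12 were called most often, in 8 comparisons each. Over the 21 total RNA libraries, the genes most like Cyp2j13 in log2 CPM were Uty (Pearson's r 0.995), on the Y chromosome, Slco1a1 (0.994), Pzp (0.993), Neurog2 and Znrf1 (0.99 each). Those most like Cyp2d9 were Azgp1 (0.981), Cyp2j13 (0.981), Uty, Slco1a1 and Pzp, and the points fall into 2 clusters by sex. Cyp2d12 had lower values, led by Cdc27 (0.81) and Sdha (0.809).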

How the data were processed

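The authors sequenced poly(A) RNA of whole kidney and 4-TU labelled pulldowns, processed the reads with CASAVA 1.8.2 and Trimmomatic 0.36, aligned them to mm10 with STAR 2.5.3a and deposited whole-number counts per gene from HTSeq 0.6.1p2, with no normalization. Both tools were run at default settings, under which HTSeq leaves out reads that align to several places, so near copies in the P450 clusters lose reads. Libraries were grouped by the labels, and 0 columns were left unused.

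From the counts, edgeR 4.0.16 (R 4.3.3) was run with TMM scaling, glmQLFit and glmQLFTest on genes whose counts over the 69 libraries summed to 2 or more, and p-values were adjusted by Benjamini-Hochberg over all 21175 genes. The fits were those of 42 controls with sex as a covariate (pulldown against total), 22 male pulldowns (injury and driver), 32 controls of 5.5 months (sex) and 43 pulldowns of 5.5 months (sex by injury). The labels do not say that replicates are separate mice throughout, so p-values measure the spread between these libraries. In order of library number within each series, control total and control pulldown libraries match in genotype, sex and age. Total replicate 6 and Atp6b1v1 replicate 8, both high in adrenal genes, hold matching places, as do total replicate 2 and Hoxb7 replicate 2. Matched libraries may come from the same mice. The fit of 42 controls does not use this pairing and treats them as independent. No 2 libraries of a group agreed within counting noise.

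Members were named in each comparison when called with a mean of at least 10 counts, up to 6 in each direction, or when called in more than 2 comparisons, and other genes named for completeness of a count were chosen after their values were seen. The members, gene lists and marker lists were chosen with earlier results of these data known. Promoters are from RefSeq (GRCm38.p6), where 71 members had an entry, and coordinates and lengths from GENCODE M21 (GRCm38), where 89 matched. Alternatives were DESeq2 1.42.0, other normalization and filters, other sets of libraries, the series of library numbers, a replicate block and leaving out each library. The fits were tested on simulated counts. Deviations of same-numbered libraries correlated with r above 0.1 in 5 of 20 pairs in the fit of 22 males (median -0.011), 10 of 19 in that of 32 controls (median 0.12, highest 0.61), 11 of 26 in that of 42 controls (median -0.11, highest 0.65) and 25 of 73 in that of 43 pulldowns (median 0.056). Same-numbered libraries need not be of the same mouse: control total replicate 6 is female and control Atp6b1v1 replicate 6 male. In the fits of 22 males and 43 pulldowns they are always of different mice. The check therefore cannot show whether libraries are paired. The labels do not tie the numbers to mice, and no block is in the main results.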

Additional observations from a re-analysis of the deposited data

Results flagged for a closer look

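In groups of 4 to 8 libraries of 1 sex and age, 331 tests of a lone high or low library were made over the named members, and 37 passed Dixon's 95% critical value, where chance flags about 1 in 20. The adrenal genes stood out in the same libraries. In female total RNA replicate 6, Cyp11a1 was at 110 CPM, Cyp11b1 at 195 and Cyp21a1 at 271. In control Atp6b1v1 female replicate 8 they were at 39.6, 116 and 31.5 CPM, in male total RNA replicate 2 at 17.0, 18.0 and 13.8 CPM, and in control Hoxb7 male replicate 2 at 10.1, 21.1 and 5.60 CPM.

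Control Hoxb7 female replicate 1, the only one of series A among those controls, stood apart in 6 genes: Cyp26a1 (1.44 CPM), Cyp2d26 (39.8 CPM), Cyp2j6 (45.9 CPM), Cyp39a1 (22.9 CPM), Cyp4a32 (17.5 CPM) and Cyp4f16 (7.39 CPM). Female total RNA replicate 1 stood apart in Cyp26a1 (1.52 CPM), Cyp4a10 (1259 CPM) and Cyp4a32 (12.7 CPM), replicate 12 in Cyp1b1 (32.3 CPM) and Cyp2j13 (3.55 CPM), and replicate 5 in Cyp7b1 (17.1 CPM). In male total RNA, replicate 2 was high in Cyp2b10 (26.3 CPM) and Cyp2d9 (538 CPM), and replicate 7 apart in Cyp2t4 (1.63 CPM).

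Among injured mice, female Hoxb7 vAKI replicate 5 was high in Cyp2t4 (27.2 CPM) and Cyp17a1 (4.32 CPM). Male Hoxb7 iAKI replicate 5 was apart in Cyp1b1 (113 CPM), Cyp2b9 (0.0430 CPM) and Cyp4b1 (219 CPM), and replicate 7 in Cyp2a5 (364 CPM). Of the other controls, male Atp6b1v1 replicate 9 was apart in Cyp26a1 (1.5 CPM), male Hoxb7 replicate 3 in Cyp2d12 (15.3 CPM) and female Hoxb7 replicate 10 in Cyp2d9 (16.4 CPM) and Cyp3a13 (0.386 CPM).

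A test of the difference between groups flagged 20 responses, on the log2 scale by edgeR. The male iAKI response was lower in Atp6b1v1 than in Hoxb7 pulldowns for Cyp2j13 (-3.08), Cyp2d12 (-1.75) and Cyp1b1 (-1.61) and higher for Cyp21a1 (7.01) and Cyp39a1 (1.21), and the vAKI response lower for Cyp27a1 (-1.90) and Cyp2d22 (-1.13). The value of Cyp21a1 ran from 4.03 to 8.55 when 1 library was left out, and its call was lost without any of 10 of the 15. In Hoxb7 pulldowns, the vAKI response of males minus that of females was 2.77 for Cyp2t4, 2.16 for Cyp27a1, 1.19 for Cyp2d22, -1.13 for Cyp4f16, -1.40 for Cyp2j6, -1.42 for Cyp39a1 and -2.40 for Cyp2j8. For iAKI it was -3.47 for Cyp2b10, -2.19 for Cyp2d12, -2.12 for Cyp2j11, -1.91 for Cyp7b1, -1.87 for Cyp2j8 and -1.80 for Cyp2j5.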

How the results depend on the processing

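Over all alternatives, 2296 of 2729 values of named members kept direction and call, 410 kept direction and lost the call, and 22 reversed. The cause was not tested in any case. Counts of members called are given here. Among females, Atp6b1v1 against total gave 20, iAKI Atp6b1v1 3, iAKI Hoxb7 2, vAKI against iAKI Hoxb7 4, and vAKI Hoxb7, driver iAKI and driver vAKI 0 each, and log2 values reversed for Cyp1a1 (0.31), Cyp1b1 (-0.27), Cyp27a1 (-0.38, and 0.59 between drivers), Cyp2a4 (0.38), Cyp2a5 (0.082), Cyp2b10 (0.38), Cyp2b9 (0.38), Cyp2j11 (0.068), Cyp2j13 (0.0048), Cyp2j6 (0.13), Cyp39a1 (-0.025 and 0.058), Cyp4a10 (-0.56), Cyp4a14 (-0.57) and Cyp4a32 (0.51). Cyp2j13 and Cyp2b10 were low in female control pulldowns, so a fall of the male size could hardly be seen there. The replicate block gave 0 for iAKI Atp6b1v1, driver iAKI, driver vAKI, sex by iAKI Hoxb7 and sex by vAKI Hoxb7, 6 for sex in Atp6b1v1 and 12 for vAKI Hoxb7, and reversed Cyp11b1 (0.66 in iAKI, 0.81 in vAKI), Cyp21a1 (0.19 in both), Cyp4a10 (-0.25) and Cyp4a14 (-0.31), and the labels do not tie these numbers to mice. In those comparisons the block joins libraries of different mice, so its counts and reversals are no test of them. With the series as a covariate, iAKI Hoxb7 gave 10 and driver vAKI 12. Without libraries above 20 CPM of Hsd3b1, chosen after seeing the data, iAKI Hoxb7 and driver iAKI gave 3 each, and sex by iAKI and by vAKI Hoxb7 13 each. With both sexes, vAKI Hoxb7 gave 9 and driver vAKI 0. Driver vAKI gave 5 with 25 males and 5 by DESeq2. With no fold threshold, Atp6b1v1 against Hoxb7 gave 5 and vAKI against iAKI Hoxb7 16. Without female Hoxb7 vAKI replicates 1, 2 and 3, also chosen after seeing the data, sex by vAKI Hoxb7 gave 0. Leaving out each library in turn gave 5 to 9 for iAKI Atp6b1v1, 3 to 7 for iAKI Hoxb7, 1 to 7 for driver iAKI, 2 to 4 for driver vAKI, 8 to 12 for sex in Atp6b1v1, 11 to 20 for sex in Hoxb7, 5 to 12 for vAKI Atp6b1v1, 13 to 18 for vAKI Hoxb7, 12 to 17 for vAKI against iAKI Atp6b1v1, 10 to 14 in Hoxb7 and, chosen after seeing the data, 3 to 13 for sex by vAKI Hoxb7 and 0 to 12 for sex by iAKI Hoxb7. At these depths, genes under about 1 CPM rest on few counts, and the 24 members at 3 counts or fewer in every library cannot be compared.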
